A study of Mus musculus with 34 samples.

Results

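The 8 genes of the inhibin, activin and follistatin family described here were taken from the count table of mouse cumulus cells (CCs) by their symbols, as 8 of its 25965 gene entries, and followed through all 34 libraries. They were Inha, Inhba and Inhbb (the hormone subunits), Fst and Fstl3 (the binding proteins), and Acvr2a, Acvr2b and Acvr1b (the receptors). Each library held the polyadenylated RNA of about 50 CCs, the granulosa cells that enclose the oocyte, from superovulated C57BL/6J females that were 8 weeks old when the protocols began. In the leptin protocol, mice were injected intraperitoneally for 16 days with saline (16 C, n = 3) or with a total of 100 µg of leptin per day (16 L, n = 5). In the diet protocol, mice ate chow diet with 11% of energy from fat (CD) or high fat diet with 58% (HFD), for 4 weeks (n = 5 and n = 5) or for 16 weeks (n = 6 and n = 7). A further 3 libraries came from mice kept for 16 weeks on HFD and labelled as low weight gainers, a group set apart by body weight and not by assignment. The labels say neither how little weight these mice gained nor whether their cells were collected with those of the other 16-week mice.

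Activins are dimers of the beta subunits encoded by Inhba and Inhbb, whereas inhibins pair a beta subunit with the alpha subunit encoded by Inha and oppose activins. Activins bind the type II receptors Acvr2a and Acvr2b, which recruit the type I receptor Acvr1b and pass the signal to SMAD2 and SMAD3, and follistatin (Fst) and follistatin like 3 (Fstl3) bind activins and keep them from their receptors. Granulosa cells of growing follicles are the main ovarian source of inhibin, which restrains the release of follicle-stimulating hormone (FSH) by the pituitary, and activins and follistatin act locally within the follicle.

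The libraries held between 1104611 and 13207018 counted reads (median 4035576), so the precision of the rarer receptors was limited by depth. Levels are given as normalised CPM, the reads of a gene scaled to the size of its library with TMM factors over the 34 libraries, which correct for differences in RNA composition. All 9 granulosa markers examined had reads, with a summed level of 121 to 266 CPM per library, although Amh, the anti-Müllerian hormone of granulosa cells, was at 0 in 16 libraries. Markers of other cells stood apart most in 3 libraries. In 16 L replicate 18 the summed level of 8 oviduct epithelium markers was 34980 CPM, against 203 to 227 CPM in 16 C, that of 3 red blood cell markers 10810 CPM and that of 7 theca and stroma markers 1452 CPM. In 16 L replicate 21 oviduct markers summed to 1879 CPM and red blood cell markers to 1917 CPM, the latter against a median of 4.02 CPM over all libraries. In 4-week HFD replicate 5 the summed level of 10 oocyte markers was 347.6 CPM, against at most 16.6 CPM in every other library. Results that rest on these libraries are given with and without them, except the correlations, which were computed over all 34 libraries only. In pooled cells, fewer cells of a type and less RNA per cell cannot be told apart. The study's methods give the cells as collected per animal, so each library was taken as 1 mouse.

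Of the hormone subunits, Inha was the best covered. It had 659 to 6384 reads per library, and its level ran from 290 CPM in a 4-week CD library to 1083 CPM in a 16-week CD library. The gene lies on chromosome 1 at 75507077 to 75510366 (GRCm38, plus strand). Per kilobase of annotated exon, which allows levels of different genes to be compared, Inha averaged 426 ± 163 CPM per kb (SD, n = 34). Fst followed with 91.7 ± 40.4 CPM per kb and Inhba with 36.1 ± 15.6 CPM per kb. The alpha subunit transcript thus exceeded the sum of both beta subunit transcripts in average level per kb. Inhbb averaged 8.57 ± 4.02, Acvr2a 7.06 ± 2.57 and Fstl3 7.02 ± 2.26 CPM per kb. These 3 genes did not differ beyond their spread over libraries. Acvr2b averaged 2.83 ± 2.58 CPM per kb and Acvr1b 0.653 ± 0.65 CPM per kb. Acvr1b, the type I receptor of activins, had 528 reads in all 34 libraries together, was at 0 in 4 of them and had at most 3 reads in 12, and 3 reads is the level that a count of 0 allows.

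**Figure D1:**
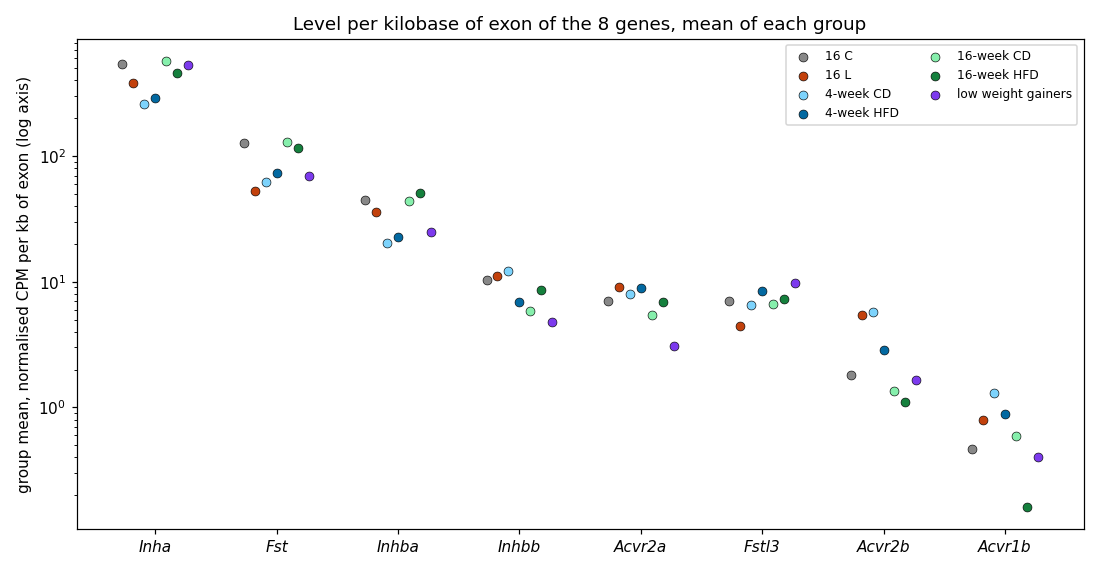
Group means of normalised CPM per kilobase of exon (log axis) for the 8 genes, each point being 1 of the 7 groups. Inha lies above the other 7 genes in each group, and Acvr1b lies lowest, down to 0.161 CPM per kb in 16-week HFD.

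The order of the groups differed between the genes. Mean Inha was highest in 16-week CD (840 ± 240 CPM, n = 6) and lowest in 4-week CD (380 ± 91.4 CPM, n = 5). Inhba, which encodes the subunit of activin A, was highest in 16-week HFD (326 ± 83.6 CPM, n = 7) and lowest in 4-week CD (131 ± 51.8 CPM, n = 5). Inhbb, the subunit of activin B, had another order, with the highest mean in 4-week CD (51.4 ± 21.1 CPM) and the lowest in the low weight gainers (20.3 ± 3.63 CPM, n = 3). Fst was highest in 16-week CD (598 ± 147 CPM) and lowest in 16 L (244 ± 128 CPM, n = 5). Acvr2a, the type II receptor with the most reads, was highest in 16 L (51.5 ± 14.03 CPM) and lowest in the low weight gainers (17.5 ± 2.70 CPM). Acvr2b was highest in 4-week CD (22.6 ± 7.93 CPM) and lowest in 16-week HFD (4.36 ± 1.51 CPM). Fstl3 was highest in the low weight gainers (23.9 ± 2.62 CPM) and lowest in 16 L (10.8 ± 2.65 CPM). In each of the 8 genes, every pair of neighbouring groups in the order of means overlapped in the range of their libraries. Groups of different protocols also differed in age at collection and were not tested against each other. The 4-week and 16-week diet groups differed in age at collection too, since all mice began at 8 weeks of age.

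**Figure D2:**
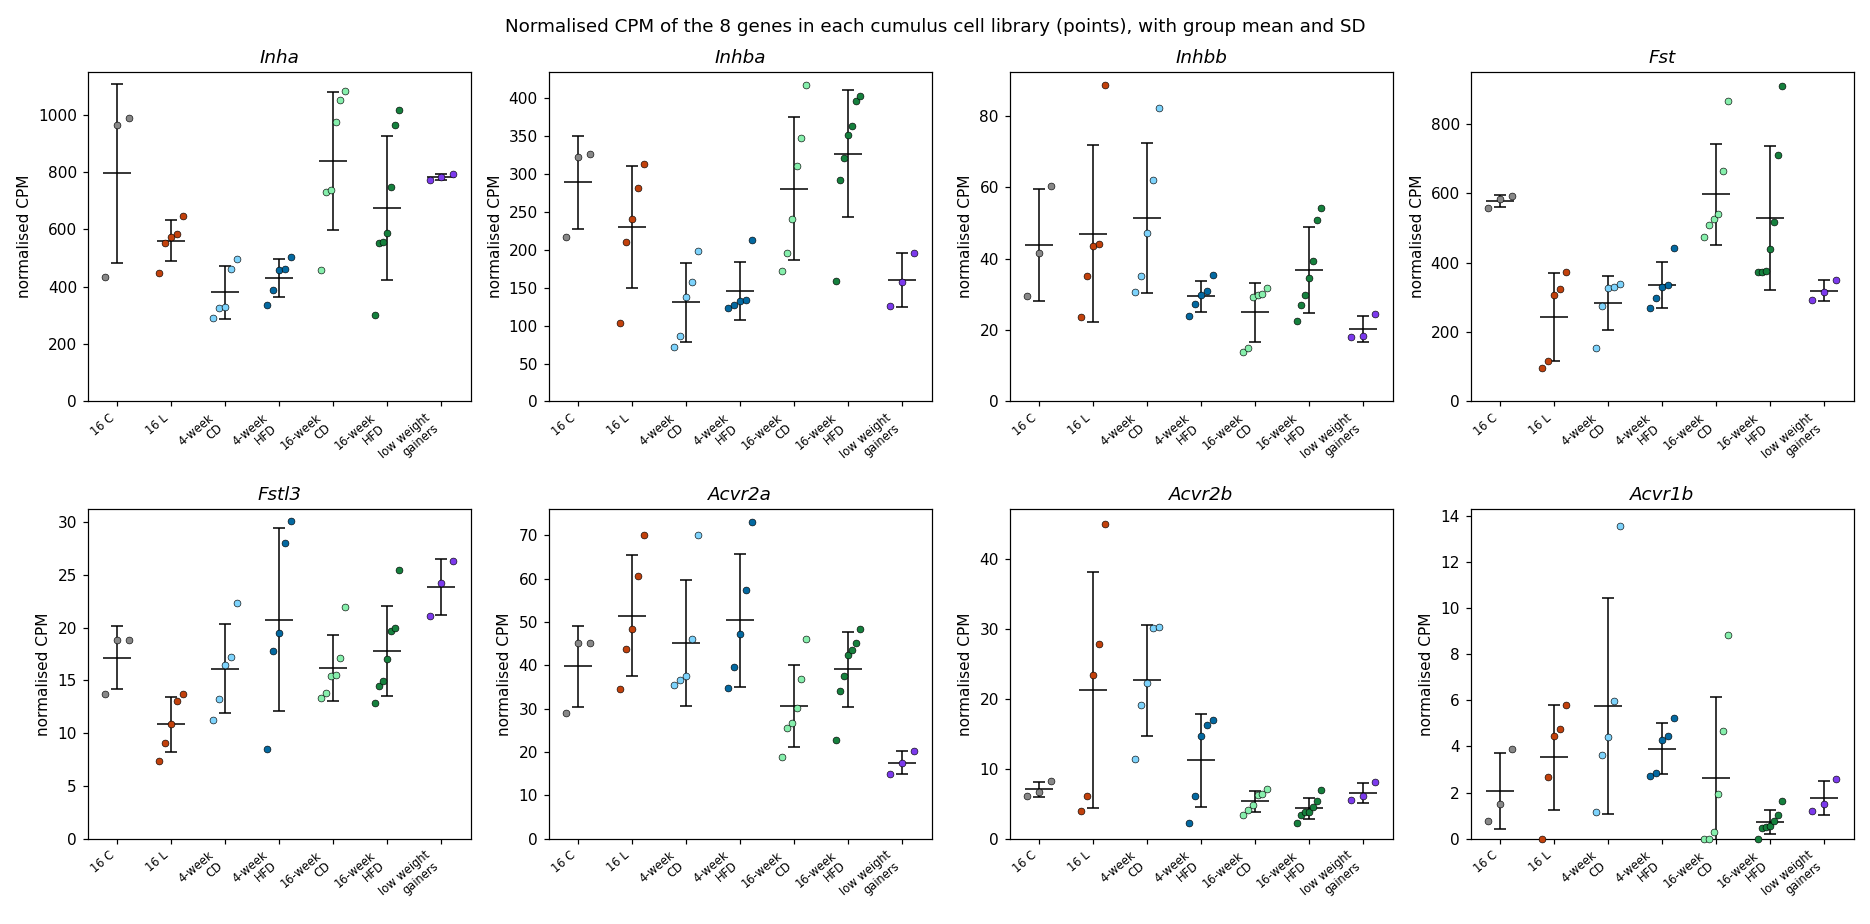
Normalised CPM of the 8 genes in each of the 34 libraries (points), with the mean and SD of each group (bars). The 3 low weight gainers lie between 14.9 and 20.3 CPM for Acvr2a, below all 7 libraries of 16-week HFD, whereas for Inha they lie between 773 and 792 CPM, within the range of that group.

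The low weight gainers were first compared with the other mice kept for 16 weeks on HFD, since both groups ate the same diet and differed in weight gain. Inhba, Inhbb and Acvr2a were lower in the low weight gainers, and Inha was not. This made 3 of the 7 genes tested, all lower, while 20.7% of all 11258 genes tested passed in either direction and 9.93% passed as lower. The median log2 fold change of the 7 genes was -0.78, beside -0.03 over all genes tested.

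Acvr2a had the smallest p. Its level was 14.9, 17.4 and 20.3 CPM in the 3 low weight gainers, and 22.8, 42.4 and 48.3 CPM as lowest, median and highest in 16-week HFD. All low weight gainers lay below all libraries of 16-week HFD, while 20.5% of all genes tested were without overlap in either direction. The log2 fold change was -1.22 ± 0.25 (SE; adjusted p = 0.00372), a 2.32-fold lower level. The call was kept in all 10 fits that left out 1 library (adjusted p 0.00325 to 0.0334). Acvr2a overlaps Orc4 on the opposite strand, and reads of the overlap cannot be told apart in this unstranded method.

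Inhba was 126, 158 and 196 CPM in the low weight gainers and 158, 351 and 402 CPM as lowest, median and highest in 16-week HFD. Here the groups overlapped, because the lowest 16-week HFD library, replicate 10, lay within the low weight gainers while the other 6 lay above them. The log2 fold change was -1.07 ± 0.27 (SE; adjusted p = 0.011), a 2.1-fold lower level. The call was lost without low weight gainer replicate 22 (adjusted p = 0.0628) or 23 (adjusted p = 0.0703). With all 34 libraries in a joint fit it was lost as well (adjusted p = 0.0876).

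Inhbb was 18.2, 18.2 and 24.5 CPM in the low weight gainers and 22.5, 34.6 and 54.1 CPM as lowest, median and highest in 16-week HFD. Only 1 low weight gainer reached into the range of the other group. The log2 fold change was -0.90 ± 0.28 (SE; adjusted p = 0.0329), a 1.87-fold lower level. This call was the least stable of the 3, and it was lost in 5 of the 10 fits that left out 1 library, with adjusted p up to 0.153. It was also lost under scaling by total counts (adjusted p = 0.0884) and with all 34 libraries in a joint fit (adjusted p = 0.184).

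Fst was 293, 315 and 351 CPM in the low weight gainers and 374, 441 and 910 CPM as lowest, median and highest in 16-week HFD. The groups did not overlap, as for 20.5% of all genes tested in this comparison, and the log2 fold change was -0.78 ± 0.30 (SE), which did not pass the threshold by edgeR (adjusted p = 0.0719). It passed in DESeq2 (adjusted p = 0.042) and without 16-week HFD replicate 6 (adjusted p = 0.0483). The remaining genes had positive estimates that did not pass. They were 0.17 for Inha (95% interval -0.44 to 0.79), 0.40 for Fstl3 (-0.10 to 0.91) and 0.55 for Acvr2b (-0.24 to 1.35). Acvr1b failed the filter on low counts with 23 reads in the low weight gainers and 17 in 16-week HFD, and the mean of log2(RPM + 1), RPM being reads scaled by the library total without TMM, was 1.35 against 0.62 (exact permutation test, two-sided, p = 0.025, smallest possible 0.00833). The exact permutation p was 0.0667 with a pseudocount of 0.1 RPM and 0.139 without low weight gainer replicate 23.

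Markers of luteinizing granulosa cells moved unequally in this comparison. Their summed level, over 6 markers, was 5478 to 6185 CPM in the low weight gainers and 2211 to 3961 CPM in 16-week HFD, and of the 5 tested 2 were higher (Cyp11a1 and Scarb1) and 1 was lower (Prlr). Most of the sum was Cyp11a1, a steroidogenic enzyme, with a mean of 4623 CPM in the low weight gainers and 1851 CPM in 16-week HFD, whereas Star, the cholesterol carrier of steroidogenesis, averaged 462.3 and 473.3 CPM. At most 1 of the 6 was at 0 in any library. The part of this difference in the lower Inhba, Inhbb and Acvr2a was not tested. The summed levels of oviduct epithelium markers overlapped between the groups (159 to 501 CPM and 196 to 676 CPM). The highest sums were in low weight gainer replicate 22 and 16-week HFD replicate 10. Red blood cell markers were also highest there, 95.91 CPM (group median 16.65) and 183.4 CPM (group median 8.217). Theca and stroma markers were 37.02 CPM in 16-week HFD replicate 10 (group median 1.82). The part of these markers in the values was not tested.

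Since these 3 genes were lower together, their promoter windows are shown, each 250 bases before to 50 bases after the start of the RefSeq transcript (GRCm38.p6, 5′ to 3′ on the strand of the gene). Capitals mark matches, on either strand, to 6 short motifs. The core of the cAMP response element, bound by factors downstream of gonadotropin receptors, was searched as TGACG. The SMAD binding element, contacted by the signal carriers of the activin pathway, was searched as CAGAC. The core of the response element of NR5A nuclear receptors, which act widely in steroid-producing tissue, was searched as AGGTCA. The site of AP-1, a dimer of FOS and JUN proteins, was searched as TGACTCA. The GC box, bound by SP factors at many promoters, was searched as GGGCGG. The core of the TATA box, bound by the general transcription machinery, was searched as TATAAA. In the printed windows no match overlaps another. The Inhba window lies at chr13:16011601-16011900 (plus strand), the Inhbb window at chr1:119422199-119422498 (minus strand) and the Acvr2a window at chr2:48813859-48814158 (plus strand).
Inhba: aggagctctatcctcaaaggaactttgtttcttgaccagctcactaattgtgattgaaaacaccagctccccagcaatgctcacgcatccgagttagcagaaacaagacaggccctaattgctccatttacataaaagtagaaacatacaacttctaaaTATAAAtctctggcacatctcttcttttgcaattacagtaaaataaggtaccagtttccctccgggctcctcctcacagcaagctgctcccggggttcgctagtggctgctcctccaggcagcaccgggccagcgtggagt
Inhbb: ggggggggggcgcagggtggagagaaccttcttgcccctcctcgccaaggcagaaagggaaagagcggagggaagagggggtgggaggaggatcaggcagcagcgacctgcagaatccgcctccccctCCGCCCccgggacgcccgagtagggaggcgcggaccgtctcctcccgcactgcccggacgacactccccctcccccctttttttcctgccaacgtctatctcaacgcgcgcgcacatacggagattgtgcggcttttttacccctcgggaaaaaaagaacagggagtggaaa
Acvr2a: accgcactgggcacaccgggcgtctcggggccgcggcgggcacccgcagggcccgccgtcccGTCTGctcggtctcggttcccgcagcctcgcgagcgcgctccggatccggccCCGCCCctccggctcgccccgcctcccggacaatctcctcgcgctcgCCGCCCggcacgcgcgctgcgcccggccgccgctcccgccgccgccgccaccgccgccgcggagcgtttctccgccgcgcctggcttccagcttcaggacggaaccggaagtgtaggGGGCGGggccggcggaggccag
The Inhba window held 1 TATA box core, which 13.6% of all 32851 windows hold. The Inhbb window held 1 GC box and the Acvr2a window 3 GC boxes, found in 35.7% of windows, and the Acvr2a window also held 1 SMAD binding element, found in 49.6%. None of these 3 windows held the letters of the cAMP response element core, the NR5A core or the AP-1 site, which 20.8%, 16.3% and 5.2% of windows hold. GC content was 47.7% for Inhba, 64.3% for Inhbb and 80.3% for Acvr2a, with a median of 52.7% over all windows. The 3 windows thus shared no match to these letters other than the GC box of Inhbb and Acvr2a. A match is a description of the letters and not evidence of binding.

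The same low weight gainers were then compared with 16-week CD. None of the 8 genes passed, beside 0.00861% of all 11620 genes tested, and DESeq2 called 1, Fst, beside 226 over all genes. Without adjustment, 3 of the 8 genes and 1299 of all genes had p under 0.05. Inhba was 172, 276 and 417 CPM as lowest, median and highest in 16-week CD, and the log2 fold change of the low weight gainers was -0.82 ± 0.35 (SE; adjusted p = 0.415). Fst was 476, 534 and 866 CPM as lowest, median and highest in 16-week CD, above all low weight gainers. It was the 1 gene of the 8 without overlap, beside 7.56% of all genes tested, and its log2 fold change was -0.92 ± 0.32 (SE; adjusted p = 0.352), with an adjusted p of 0.0489 in DESeq2. Acvr2a had a log2 fold change of -0.82 ± 0.32 (SE; adjusted p = 0.384). The remaining estimates were -0.11 for Inha, -0.32 for Inhbb, 0.55 for Fstl3, 0.28 for Acvr2b and -0.64 for Acvr1b. The median over the 8 genes was -0.48 and over all genes -0.08. This comparison shares the low weight gainers with the one before.

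**Figure D3:**
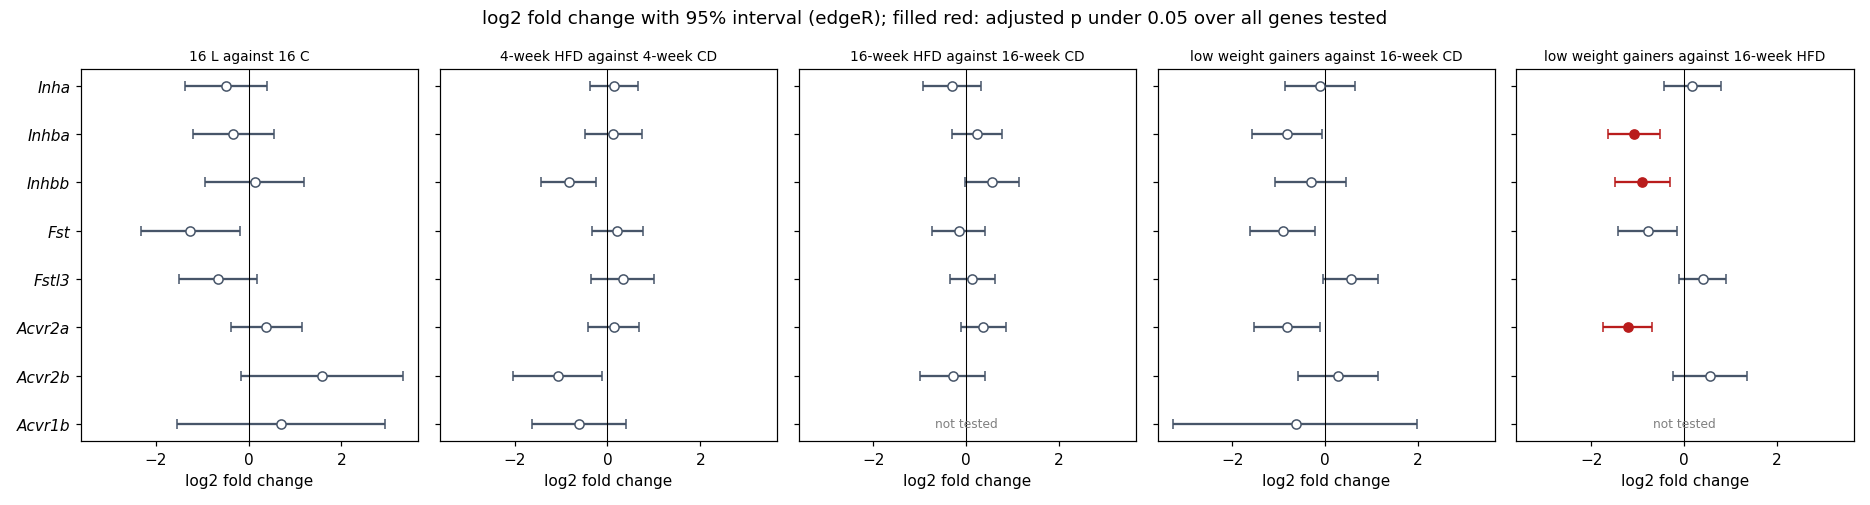
log2 fold changes (x axis) with 95% intervals for the 8 genes in the 5 comparisons of 2 groups, by edgeR's quasi-likelihood test, red points having an adjusted p under 0.05 over all genes tested. Red points appear only for the low weight gainers against 16-week HFD, at -1.07 (Inhba), -0.90 (Inhbb) and -1.22 (Acvr2a).

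The diet was next compared at 16 weeks. In 16-week HFD against 16-week CD none of the 7 genes tested passed, beside 0.0276% of all 10861 genes tested. DESeq2 also called 0 of them, beside 1130 calls over all genes. None of the 7 had an unadjusted p under 0.05, compared with 2748 of all genes. The libraries of both groups overlapped for all 7 genes, beside 1.00% of all genes without overlap. The estimates were 0.56 ± 0.28 for Inhbb (SE; adjusted p = 0.213), 0.23 ± 0.25 for Inhba (adjusted p = 0.564) and -0.31 ± 0.29 for Inha (adjusted p = 0.507). For Fst the log2 fold change was -0.17 (95% interval -0.74 to 0.41), for Fstl3 0.13 (-0.36 to 0.62), for Acvr2a 0.37 (-0.12 to 0.85) and for Acvr2b -0.30 (-0.999 to 0.40). Changes outside these intervals were thus not seen, and smaller ones cannot be told from 0. Acvr1b failed the filter, with 17 reads in 16-week HFD and 76 in 16-week CD, of which replicates 1 and 2 held 37 and 34 (exact permutation test of mean log2(RPM + 1), two-sided, p = 0.274).

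After 4 weeks of diet none of the 8 genes passed either, beside 4.26% of all 11727 genes tested. DESeq2 also called 0 of the 8, beside 1292 calls over all genes. Without adjustment 2 of the 8 genes and 2845 of all genes had p under 0.05. Inhbb was 30.6, 35.1, 47.2, 62.0 and 82.2 CPM in 4-week CD and 23.9, 27.4, 30.0, 31.0 and 35.6 CPM in 4-week HFD. The HFD libraries lay close together and overlapped the lower CD libraries, with a log2 fold change of -0.84 ± 0.27 (SE; adjusted p = 0.0875). It passed when 4-week CD replicate 11, the lowest of its group, was left out (adjusted p = 0.0217). Acvr2b was 11.4, 19.1, 22.3, 30.1 and 30.2 CPM in CD and 2.27, 6.05, 14.6, 16.2 and 16.9 CPM in HFD. The 2 CD libraries at the low end lay at or near the upper HFD values, and the log2 fold change was -1.07 ± 0.45 (SE; adjusted p = 0.164). The libraries overlapped for all 8 genes, beside 6.59% of all genes without overlap.

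Inha was 290 to 495 CPM in 4-week CD and 337 to 503 CPM in 4-week HFD (log2 fold change 0.14, 95% interval -0.37 to 0.66). Inhba had an estimate of 0.13 (-0.48 to 0.74), which turned to -0.04 without 4-week HFD replicate 13 and to -0.01 without 4-week CD replicate 8. Its level was 213 CPM in that HFD replicate and 123 to 133 CPM in the other 4. Fst had an estimate of 0.21 (-0.33 to 0.76), Fstl3 of 0.33 (-0.35 to 1.00), Acvr2a of 0.13 (-0.42 to 0.69) and Acvr1b of -0.61 (-1.62 to 0.40). Leaving out 4-week HFD replicate 5, the library with oocyte markers, brought no gene of the 8 past the threshold.

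Whether the diet acted differently at 4 and 16 weeks was tested as an interaction over the 4 diet groups. Time on the diet and age at collection cannot be told apart in this test. Inhbb passed, the 1 of 8 genes to do so, beside 3.66% of all 12235 genes tested. In 16-week CD Inhbb was 13.97, 29.5 and 31.9 CPM as lowest, median and highest, against 22.5, 34.6 and 54.1 CPM in 16-week HFD. The diet effect at 16 weeks minus that at 4 weeks was 1.46 ± 0.40 on the log2 scale (SE; adjusted p = 0.0404), made of a positive estimate at 16 weeks and a negative one at 4 weeks, neither of which passed in its own comparison. The call was lost in 15 of the 23 fits that left out 1 library (adjusted p 0.0504 to 0.0918) and with 3 other choices of filter, scaling or fit, with adjusted p of 0.0555 without a filter, 0.0778 with all 34 libraries in a joint fit and 0.0957 under scaling by total counts. In the other 7 genes the interaction did not pass, with estimates from -1.03 (Acvr1b) to 0.80 (Acvr2b).

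**Figure D4:**
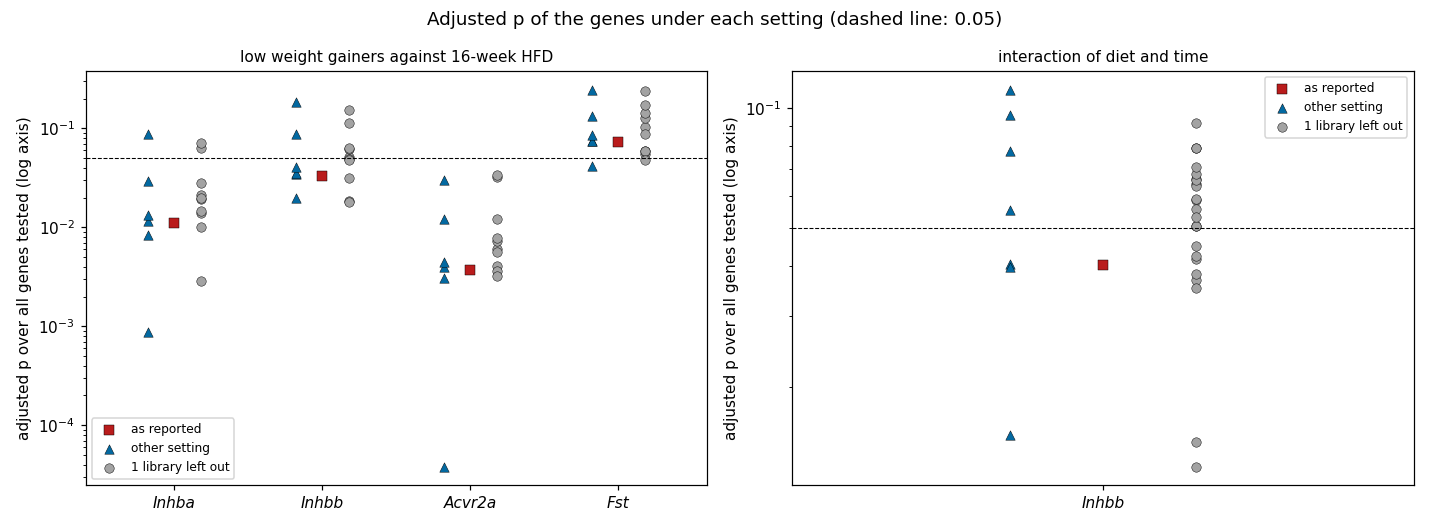
Adjusted p (log axis) of 4 genes in the low weight gainers against 16-week HFD and of Inhbb in the interaction of diet and time, as reported (squares), under other settings (triangles) and with 1 library left out (circles), the dashed line being 0.05. Acvr2a lies below the line under all settings shown, from 3.83e-05 to 0.0334, whereas Inhbb lies on either side of it in both panels.

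Leptin treatment was compared with saline in 16 L and 16 C. None of the 8 genes passed, beside 8.56% of all 11723 genes tested. DESeq2 also called 0 of them, beside 2382 calls over all genes. Of the 8 genes 1 had an unadjusted p under 0.05, compared with 3798 of all genes. Fst, the follistatin gene, was 559, 585 and 593 CPM in 16 C and 96.8, 116, 309, 324 and 373 CPM in 16 L. All 16 L libraries lay below all 16 C libraries, with a log2 fold change of -1.26 ± 0.48 (SE; adjusted p = 0.11). Fstl3 was 13.7, 18.9 and 18.9 CPM in 16 C and 7.40, 9.08, 10.9, 13.1 and 13.7 CPM in 16 L. Its highest 16 L value lay just below the lowest 16 C value, and the log2 fold change was -0.65 ± 0.37 (SE; adjusted p = 0.249). These 2 of 8 genes without overlap stand beside 23.2% of all genes tested. Acvr2b was 6.16, 6.74 and 8.30 CPM in 16 C and 3.95, 6.08, 23.4, 27.9 and 44.9 CPM in 16 L, with a log2 fold change of 1.57 ± 0.78 (SE; adjusted p = 0.19). The 16 L libraries fell on both sides of 16 C.

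The library with the most oviduct epithelium, red blood cell and theca markers, 16 L replicate 18, held the lowest Fst (96.8 CPM), Fstl3 (7.40 CPM), Inhba (104 CPM) and Acvr2b (3.95 CPM) of its group and the highest Inhbb (88.6 CPM). Without it, Fst passed with a log2 fold change of -1.13 (adjusted p = 0.0296) and Acvr2b with 1.76 (adjusted p = 0.042), so that 2 of 8 genes passed. The number of all genes called went from 1004 of 11723 tested to 4635, so calls rose over all genes and not in these 2 alone. Replicate 21, with red blood cell and oviduct markers, held the second lowest Fst (116 CPM) and the highest Acvr2b (44.9 CPM) of 16 L. Without both replicates, a setting chosen after the data were seen, Fst passed with a log2 fold change of -0.78 (adjusted p = 0.0459) and Acvr2b did not with 1.46 (adjusted p = 0.0769), beside 37.8% of all genes called. In the other 3 libraries of 16 L, replicates 19, 23 and 20, the summed oviduct markers were 135, 673.5 and 1438 CPM. Summed over 8 markers, macrophages and neutrophils had 73.48, 1137 and 995.6 CPM in these libraries, against 114.6 to 732.4 CPM in 16 C. The part of these markers in the values was not tested. Markers of cumulus expansion summed to 127.5 to 694 CPM over 7 markers in 16 L and to 1249 to 2284 CPM in 16 C, with 0 of the 5 tested called by edgeR and 1 at an unadjusted p under 0.05. Most of this difference lay in Tnfaip6, a matrix protein of the expanding cumulus (mean 224.4 and 1677 CPM). Ptx3 averaged 45.5 and 46.7 CPM, with medians of 9.73 CPM in 16 L and 57.77 CPM in 16 C. It ran from 0 to 133.9 CPM in 16 L and from 22.62 to 59.83 CPM in 16 C. Inhibin and activin subunits showed smaller estimates, -0.49 for Inha (95% interval -1.37 to 0.39), -0.33 for Inhba (-1.21 to 0.56) and 0.13 for Inhbb (-0.93 to 1.20). Acvr2a had 0.39 (-0.37 to 1.15) and Acvr1b 0.69 (-1.54 to 2.93). The median over all genes was 0.27 after TMM scaling and 1.08 under scaling by total counts, where the estimates of Inha, Inhba and Fstl3 turned positive (0.30, 0.53 and 0.18) while Fst stayed negative (-0.38).

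The balance of the transcripts was compared within libraries, where no scaling is needed, as 3 ratios of reads in the 5 comparisons of 2 groups. These 15 exact permutation tests were two-sided and adjusted together. The reads of Inhba per read of Inha were 0.159, 0.204 and 0.250 in the low weight gainers and 0.303, 0.523 and 0.723 as lowest, median and highest in 16-week HFD. The groups did not overlap, the mean log2 ratio being lower by 1.31 in the low weight gainers (exact permutation p = 0.00833, the smallest possible for 3 against 7 libraries, adjusted p = 0.125). In 16-week CD the ratio was 0.236, 0.320 and 0.524 as lowest, median and highest. It was higher in 16-week HFD than in 16-week CD by 0.59 on the log2 scale (exact permutation p = 0.0402, adjusted p = 0.201) and lower in the low weight gainers than in 16-week CD by 0.72 (exact permutation p = 0.0476, adjusted p = 0.201), and all these comparisons share groups. No ratio passed after adjustment. With 15 tests, a single ratio could pass alone only in 16-week HFD against 16-week CD, where the smallest possible exact permutation p was 0.000583. In the other comparisons it was larger, from 0.00794 at 4 weeks to 0.0179 in 16 L against 16 C, so their single ratios could not pass alone.

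The reads of Fst per read of Inhba, follistatin for each activin A subunit, were 1.81, 1.82 and 2.58 in 16 C and 0.373, 0.935, 1.15, 1.28 and 1.77 in 16 L. The groups did not overlap, and the mean log2 ratio was lower in 16 L by 1.06 (exact permutation p = 0.0536, adjusted p = 0.201). Without 16 L replicates 18 and 21, a setting chosen after the data were seen, the difference was -0.568 (exact permutation test, adjusted p = 0.333). In the low weight gainers this ratio was 1.79, 1.86 and 2.50, within the range of 0.931 to 2.59 in 16-week HFD (difference of mean log2 ratios 0.35, exact permutation p = 0.358). The reads of Inhba per read of Inhbb were 6.87 to 8.62 in the low weight gainers and 6.90 to 13.3 in 16-week HFD (difference -0.19, exact permutation p = 0.425). At 4 weeks this ratio was 1.06, 1.16, 4.19, 4.47 and 4.50 in CD and 4.22, 4.29, 4.47, 5.54 and 5.99 in HFD. The 2 CD libraries near 1 were those with the highest Inhbb, and the difference of 0.94 had an exact permutation p of 0.111 (adjusted p = 0.333).

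**Figure D5:**
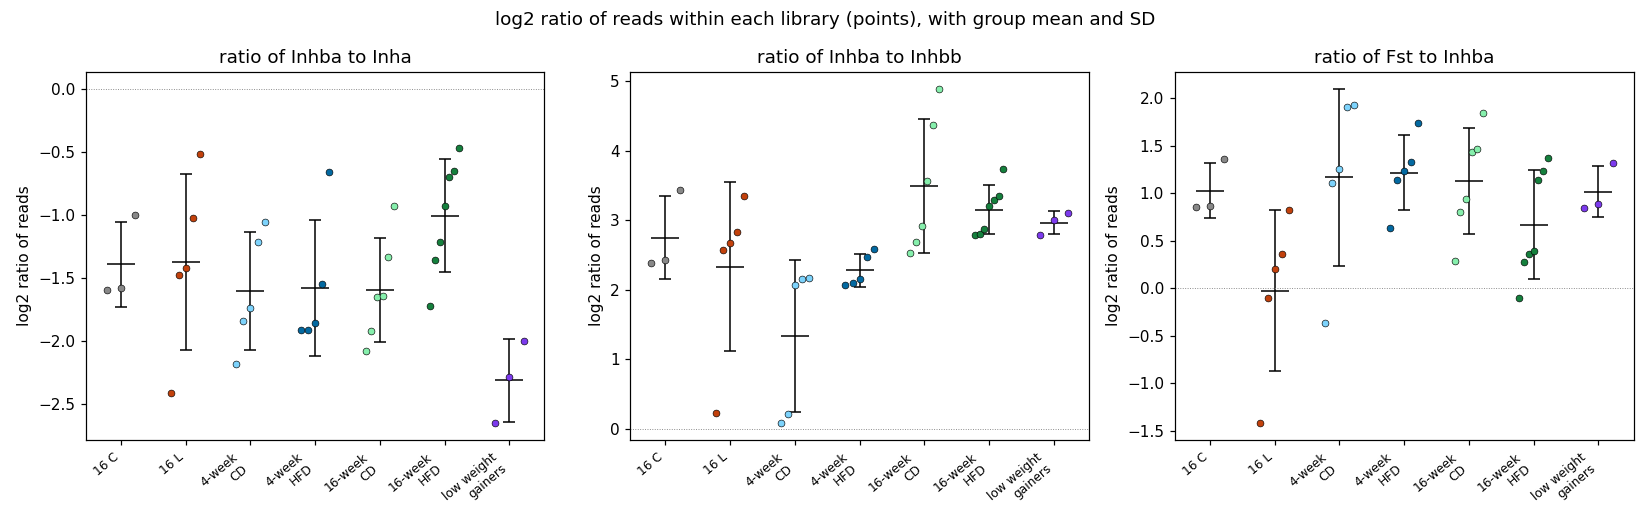
log2 ratios of reads within each library (points) for Inhba to Inha, Inhba to Inhbb and Fst to Inhba, with group mean and SD. For Inhba to Inha the low weight gainers average -2.31 and lie below all libraries of 16-week HFD, which average -1.01.

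A list of 42 other genes was followed beside them, made of 34 genes of the activin pathway and 8 transcription factors of granulosa cells, with 41 in the table. In the low weight gainers against 16-week HFD, 21 pathway genes could be tested, of which 2 rose and 2 fell, and 1 of the 8 transcription factors fell. The pathway genes that fell were Smad4, the common partner of receptor-activated SMADs (-1.04 ± 0.19, SE; adjusted p = 0.00224), and Smurf2, a ubiquitin ligase of the pathway (-1.13 ± 0.25; adjusted p = 0.00639). The transcription factor was Creb1, which acts in cAMP signalling (-1.16 ± 0.30; adjusted p = 0.0133). The genes that rose were Ski, a corepressor of SMADs (0.86 ± 0.27; adjusted p = 0.0339), and Smurf1, the paralogue of Smurf2 (0.95 ± 0.26; adjusted p = 0.016). The share called was 4 of 21 pathway genes and 1 of 8 transcription factors, beside 20.7% of all genes, and the median of the whole list was -0.45.

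In 16 L, 3 of 23 tested pathway genes fell and 0 rose, and 0 of the 8 transcription factors passed by edgeR (1 at an unadjusted p under 0.05), beside 8.56% of all genes. Skil, a corepressor of SMADs that activin-type signals induce, was 9408 ± 1631 CPM in 16 C (n = 3) and 422 ± 201 CPM in 16 L (n = 5), a log2 fold change of -4.48 ± 0.54 (SE; adjusted p = 0.00758). Gdf11, a ligand that uses the same type II receptors, fell by 2.86 on the log2 scale (adjusted p = 0.00758), and Acvr1c, a type I receptor, by 2.29 (adjusted p = 0.0464). For all 3 genes 16 C had the highest mean of the 7 groups. Means of the diet groups ran from 546 CPM (4-week CD) to 2672 CPM (16-week HFD) for Skil. For Gdf11 they were 4.37 (4-week HFD) to 43.5 CPM (16-week HFD), against 57.7 in 16 C and 7.84 in 16 L. For Acvr1c they were 9.73 (4-week HFD) to 36.95 CPM (16-week HFD), against 39 and 7.85. These protocols were not tested against each other. Without replicates 18 and 21 the log2 fold changes were -4.26 for Skil, -2.91 for Gdf11 and -1.88 for Acvr1c, all past the threshold. Of 29 tested genes of the whole list 5 rose and 5 fell in that fit, beside 37.8% of all genes called. In 4-week HFD, Ski (-1.02; adjusted p = 0.0275) and Pmepa1, a membrane protein that restrains SMAD signals (-1.90; adjusted p = 0.021), fell as 2 of 24 pathway genes tested. Of all genes tested at 4 weeks, 4.26% passed. None of the 29 tested genes of the whole list passed in 16-week HFD and none of the 30 in the low weight gainers against 16-week CD (by edgeR, with 7 and 4 of them at an unadjusted p under 0.05). The interaction passed for Smurf2 (1.02), as 1 of 24 pathway genes, and for Gata4 (-2.72), as 1 of 8 transcription factors, beside 3.66% of all genes.

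Finally, the genes whose libraries varied most like each member within groups were sought among 9010 genes with a mean count of at least 50, by Pearson correlation over the 34 libraries after the group means were removed. These correlations describe the libraries, which share depth and amplification. For Inha they were Btbd9 (r = 0.841), Prmt5 (0.839) and Bckdk (0.766), and for Inhba they were Bfar (0.784), Cdkn1a (0.734) and Tpr (0.729). For Inhbb they were Rffl (0.728), Igfbp5 (0.724) and C030046I01Rik (0.709), and for Fst they were D0H4S114 (0.784), Btc (0.781) and Ptx3 (0.78). The best matches of Fst thus included Btc, an EGF-like ligand, and Ptx3, a matrix protein of the expanding cumulus. Correlations among the members themselves are not comparable with these, since the matches were picked as the highest of 9010 genes. The largest in size were -0.504 (Inhba and Acvr1b) and 0.482 (Fstl3 and Acvr2b). Inha and Inhba had r = 0.435, Inha and Inhbb -0.117, Inhba and Inhbb -0.273, and Fst and Inhba 0.172.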

How the data were processed

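RNA-seq libraries of CCs (34, in 7 groups given by the sample titles, with their replicate numbers) were analysed. The authors captured polyadenylated RNA of about 50 cells with the Smart-seq2 oligo-dT method, amplified it by PCR without molecular identifiers and prepared libraries with Nextera XT, which does not mark strand. The submitters' processing notes name Trim Galore 0.4.2, HISAT2 2.0.5 and GRCm38, and the counting program is not given in the sources used here. The authors deposited 1 table of whole-number read counts per gene and library, without normalization. The floor of 3 counts covers counting error only. Intervals of the log2 fold changes come from the edgeR fits and also take in the variation between libraries.

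Each gene that passed the filter was tested with edgeR 4.0.16 in R 4.3.3 (TMM, filterByExpr, robust quasi-likelihood F-test, two-sided), within the groups of each comparison, and called below a Benjamini-Hochberg adjusted p of 0.05 over all genes tested. The study names a DESeq analysis of these libraries, for which its methods give no version or model, so DESeq2 was run as an alternative. Ratios (pseudocount 0.5 reads) and genes that failed the filter (log2(RPM + 1)) were compared by exact permutation tests over libraries in scipy 1.17.1. Exon lengths were unions of GENCODE M21 exons, and promoter windows (found for 7 of the 8 genes) came from RefSeq on GRCm38.p6. All 8 genes were named in every comparison, of the pathway list those called, and for Inha, Inhba, Inhbb and Fst the 3 genes with the highest correlation. The alternatives were DESeq2 1.42.0, RLE or total-count scaling, other filters, all libraries in a joint fit, other pseudocounts and each library left out. The fits were tested on simulated data. No replicate pair was identical among the 72 pairs within groups (smallest chi-square per degree of freedom 3.26). The members and lists were chosen with earlier results of these data known.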

Additional observations from a re-analysis of the deposited data

Results flagged for a closer look

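Inhba stood apart in 1 library of 4-week HFD. Replicate 13 had 213.3 CPM, while the next highest of the 5 libraries had 133.1 CPM, and the gap made up 0.884 of the range of the group, beyond Dixon's 95% critical value of 0.71. The log2 ratio of Inhba to Inha in the same library was -0.658, followed by -1.553 in the next library, a gap of 0.71 of the range, which equals the critical value to the digits given. In 16 L, replicate 18 had a log2 ratio of Inhba to Inhbb of 0.2249, below 2.572 in the next library, and its gap was 0.752 of the range. That library also held 34980 CPM of oviduct epithelium and 10810 CPM of red blood cell markers. The limit is passed by chance in about 1 of 20 groups, and 3 of the 55 groups of values examined passed it.

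The effect of HFD on Inhbb differed between 16 and 4 weeks by 1.46 on the log2 scale in the test of the interaction (adjusted p = 0.0404, edgeR), with estimates of 0.56 at 16 weeks and -0.84 at 4 weeks.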

How the results depend on the processing

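Genes called over the whole table depended strongly on the setting. With DESeq2, 16 L had 2382 calls (1004 as reported) and 4-week HFD 1292 (499). The tool called 1130 genes after 16 weeks of HFD (3 as reported), 226 for the low weight gainers against 16-week CD (1) and 1160 for the interaction (448). Scaling by total counts gave 4035 in 16 L, 1646 in 16-week HFD, 0 in the low weight gainers against 16-week CD and 873 in the interaction. Without a filter they were 504 in 16 L and 13 in 16-week HFD, and with at least 10 counts in every library 0 in 16-week HFD and 0 in the low weight gainers against 16-week CD. A joint fit of all 34 libraries called 4384 genes in 16 L, 69 after 4 weeks of HFD, 1258 after 16 weeks, 7 and 487 in the low weight gainers against 16-week CD and HFD, and 157 in the interaction. When each library was left out in turn 16 L gave 30 calls at the lowest, when 16 C replicate 1 was omitted, and 4635 at the highest, when 16 L replicate 18 was. For 4-week HFD the lowest was 8 (4-week CD replicate 8 omitted) and the highest 1700 (4-week CD replicate 11 omitted), and for 16-week HFD they were 1 and 2222 (16-week CD replicate 9 omitted). The range was 0 to 1 for the low weight gainers against 16-week CD and 596 (low weight gainer replicate 23 omitted) to 2732 against 16-week HFD. It was 69 (4-week HFD replicate 5 omitted) to 1685 (16-week CD replicate 9 omitted) for the interaction. Without 16 L replicates 18 and 21, a setting added after the data were seen, 4145 genes and 1 of the 8 (Fst) were called in 16 L, Inhbb turned to -0.346 and its ratio (Inhba to Inhbb) to 0.114, and Acvr1b had no value because it failed the filter. The cause was not tested.

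Of the 8 genes, 2 were called in 16 L under scaling by total counts (Acvr2a and Acvr2b) and 2 with all libraries in a joint fit (Fst and Acvr2b). These stand beside the 4035 and 4384 calls over all genes, against 1004 as reported. In the low weight gainers, DESeq2 called 1 against 16-week CD (Fst) and 4 against 16-week HFD, with Fst as the added gene (adjusted p = 0.042), and the joint fit called 1 against 16-week HFD (Acvr2a). The DESeq2 call against 16-week CD stands beside 226 over all genes, and the joint fit call beside 487. For DESeq2 against 16-week HFD only the edgeR share over all genes, 20.7%, is given. In the interaction 0 were called under scaling by total counts, without a filter or in the joint fit. Without 1 library the calls ranged from 0 to 2 in 16 L, 0 to 1 in 4-week HFD, 1 to 4 in the low weight gainers against 16-week HFD and 0 to 1 in the interaction. In the low weight gainers against 16-week HFD, Inhbb was lost under scaling by total counts, and without 16-week HFD replicate 12 or 16 or any of the low weight gainers. In the interaction it was lost without 16-week CD replicates 1, 2, 5 or 8, 16-week HFD replicates 12, 14, 15 or 16, 4-week CD replicates 1, 2 or 8, or 4-week HFD replicates 3, 4, 5 or 14.

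Signs turned for 19 estimates of the genes, none of which had passed, 8 of them under scaling by total counts, 7 without 1 library, 3 under the replicate block and 1 without 16 L replicates 18 and 21. Under scaling by total counts they were 0.295 (Inha), 0.532 (Inhba) and 0.178 (Fstl3) in 16 L, -0.0655 (Inhba), -0.239 (Fstl3) and -0.0166 (Acvr2a) in 16-week HFD, and -0.0747 (Inhba) and -0.0314 (Acvr2a) in the interaction. That scaling moved the median of all genes to 1.08 in 16 L and to -0.4 in 16-week HFD. Without 1 library the ranges that crossed 0 were -0.357 to 0.411 (Inhbb in 16 L), -0.043 to 0.352 (Inhba) and -0.0502 to 0.338 (Acvr2a) in 4-week HFD, and -0.0656 to 0.31 (Inhba) and -0.359 to 0.0269 (Fstl3) in the interaction. For the ratio of Inhba to Inha they were -0.191 to 0.283 in 16 L and -0.204 to 0.164 in 4-week HFD. They were -0.674 to 0.107 for Inhba to Inhbb in 16 L, and for Fst to Inhba -0.333 to 0.241 in 4-week HFD and -0.277 to 0.034 in the low weight gainers against 16-week CD. No ratio passed under any alternative, among them a pseudocount of 5 reads.

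The 2 groups of each comparison share no replicate number, and same-numbered libraries of different diet groups correlated between -0.29 and 0.194 in their deviations from the group means, so the numbers do not pair the libraries. With the replicate block the interaction gave 10 genes and 0 of the 8, Inhbb being 2.2 (adjusted p = 0.111), and the estimates of Inha, Fstl3 and Acvr2a turned to 0.0625, 0.924 and -0.819. Depth limited Acvr1b, with a median of 7.5 reads per library.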
